A study of Mus musculus with 10 samples.

Results

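Chemokine ligands are small secreted proteins that direct the movement of leukocytes, and 8 of their genes were followed here in CD8+ T cells recovered from mouse melanoma. They were chosen by name: *Ccl1*, *Ccl3*, *Ccl4*, *Ccl5*, *Ccl9* and *Xcl1*, called the 6 T cell chemokines here, and *Cxcl9* and *Cxcl10*, the 2 ligands better known from myeloid cells. All 8 were found among the 34932 genes quantified, and all 8 passed the filter on low counts that left 11781 genes for testing.

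The study compared tumor-infiltrating T cells that carried a BATF transgene with cells that carried the empty vector, in 5 mice per group and 1 library per mouse. Donor cells were splenocytes of Pmel mice (Thy1.2/Thy1.2), whose CD8+ T cells bear a transgenic receptor for the melanoma antigen gp100. They were activated with gp100 peptide and IL-2 and infected with MSCV-IRES-Thy1.1 (MIT), a retroviral vector driven by its viral promoter that marks infected cells with Thy1.1. The vector held the mouse BATF open reading frame (MIT-BATF) or no insert (MIT-Empty), and both cultures received IL-2, IL-7 and IL-15. Of each culture, Thy1.1+ cells were injected into an Ly5.1 mouse bearing a tumor of B16-F10, a transplantable melanoma line. The Ly5.1 recipients carried their own CD45.1 immune cells, and the study used male and female mice 8 to 12 weeks old. After 7 days, 2000 live Thy1.1+ Pmel T cells from each tumor were sorted into lysis buffer and sequenced by a SMART-Seq2 protocol. The sort selected Thy1.1, not BATF. Levels are given in CPM, counts scaled to a library total of 1000000. *Batf* itself ranged from 12.4 to 26.5 CPM in the libraries labelled MIT-BATF and from 13.5 to 50.8 CPM in those labelled MIT-Empty, with a log2 fold change of -0.41 (adjusted p = 0.522, edgeR's quasi-likelihood test), so *Batf* counts did not separate the labelled groups. Whether transcripts of the vector were counted under *Batf* was not tested. The group names below are those of the labels.

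Chemokines bind G protein-coupled receptors on responding leukocytes, and a ligand family is usually read by a few shared receptors. XCL1 acts on XCR1, the receptor of cross-presenting dendritic cells. CCL3, CCL5 and CCL9 act on CCR1, which monocytes and other myeloid cells carry, and CCL4 draws many of the same leukocytes. CCL1 acts on CCR8, which is found on activated and regulatory T cells, while CXCL9 and CXCL10 are induced by interferon gamma and draw CXCR3+ T cells. Activated CD8+ T cells are known to release CCL3, CCL4, CCL5 and XCL1 together with cytokines and granule proteins.

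Of the 8 genes, 5 lie on mouse chromosome 11 (GRCm38). *Ccl5* (chr11:83525778-83530518, minus strand), *Ccl9* (chr11:83572919-83578636, minus strand), *Ccl3* (chr11:83647844-83649355, minus strand) and *Ccl4* (chr11:83662584-83664683, plus strand) stand within 138.9 kb. *Ccl1* (chr11:82176657-82305690, minus strand) is 1220 kb away from *Ccl5*. *Cxcl9* (chr5:92321347-92328079) and *Cxcl10* (chr5:92346638-92348889) are separated by 18.6 kb on the minus strand of chromosome 5, and *Xcl1* (chr1:164931644-164935527, minus strand) stands alone on chromosome 1. Nearly all counts of a gene fell on 1 annotated transcript: *Ccl5-201* held 99.9% of *Ccl5* counts, *Ccl1-202* held 95.8% of *Ccl1* counts and *Ccl9-201* held 92.2% of *Ccl9* counts. Among the members, *Cxcl10* is the one that overlaps another annotated gene, *Art3* on the opposite strand, which had 99 counts over all libraries. SMART-Seq2 does not keep strand.

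BATF pairs with JUN proteins at AP-1 motifs, so the promoters of the members were searched for that motif. Promoter windows of RefSeq (GRCm38.p6, 250 bases before to 50 bases after the start site) were matched for 6 of the 8 genes, and *Ccl4* and *Ccl5* had none in the table. Motifs were searched on both strands. The AP-1 motif TGANTCA was in 3 of the 6 windows and in 7.81% of all 32851 promoter windows. The interferon-response motif, GAAA repeated after any 2 bases, was in 1 of the 6, against 3.44% of all windows, and the NF-kappa B motif (GGGA, any base, TT, any base, CC) was also in 1 of the 6, against 1.2% of all. None of the 6 held TTTC followed after any 4 bases by TGANTCA, a composite motif of AP-1 and IRF factors that contains the AP-1 motif, which was in 0.119% of all windows. These are matches of letters, not measured binding. The windows of 4 genes are printed 5′ to 3′ with matches in capitals: *Xcl1* as the most abundant member by mean level, with no match, *Ccl9* as the member that was called lower, and both myeloid-type genes, which hold the other matches.
Xcl1 (chr1:164935473-164935772, minus strand): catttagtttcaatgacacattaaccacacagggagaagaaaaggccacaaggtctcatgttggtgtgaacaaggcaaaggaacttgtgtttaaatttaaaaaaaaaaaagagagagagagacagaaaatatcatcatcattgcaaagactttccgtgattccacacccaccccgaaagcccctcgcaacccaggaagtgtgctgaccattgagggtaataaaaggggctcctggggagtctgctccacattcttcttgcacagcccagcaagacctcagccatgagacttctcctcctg
Ccl9 (chr11:83578587-83578886, minus strand): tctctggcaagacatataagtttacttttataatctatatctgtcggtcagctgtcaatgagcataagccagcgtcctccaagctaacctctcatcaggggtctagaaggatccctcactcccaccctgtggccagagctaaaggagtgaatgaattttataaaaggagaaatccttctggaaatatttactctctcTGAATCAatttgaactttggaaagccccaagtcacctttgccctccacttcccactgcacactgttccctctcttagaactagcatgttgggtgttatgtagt
Cxcl10 (chr5:92348840-92349139, minus strand): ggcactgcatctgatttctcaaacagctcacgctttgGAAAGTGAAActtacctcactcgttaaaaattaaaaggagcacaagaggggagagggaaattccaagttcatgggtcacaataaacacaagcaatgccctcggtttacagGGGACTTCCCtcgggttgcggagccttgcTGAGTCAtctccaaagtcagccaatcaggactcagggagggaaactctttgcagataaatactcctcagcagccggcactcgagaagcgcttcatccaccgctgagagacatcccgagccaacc
Cxcl9 (chr5:92328030-92328329, minus strand): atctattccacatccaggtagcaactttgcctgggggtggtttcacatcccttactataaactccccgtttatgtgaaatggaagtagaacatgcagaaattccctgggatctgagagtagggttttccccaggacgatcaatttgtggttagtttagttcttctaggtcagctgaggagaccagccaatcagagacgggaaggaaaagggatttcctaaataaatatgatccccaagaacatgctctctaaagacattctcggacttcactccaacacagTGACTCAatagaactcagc
The AP-1 match of *Ccl9* begins 53 bases before the start site and that of *Cxcl10* 74 bases before it. *Cxcl10* also holds the NF-kappa B match 103 bases and the interferon-response match 213 bases upstream. The AP-1 match of *Cxcl9* begins at transcribed base 32, and the windows of *Ccl1* and *Ccl3* hold none of these motifs.

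Totals ranged from 10702908 to 34102346 estimated counts in MIT-BATF and from 6534648 to 21355922 in MIT-Empty, with MIT-Empty replicate 4 the lowest. Mitochondrially encoded genes held 33.2% of counts in MIT-BATF replicate 1 and 11.5% to 15.1% in the other MIT-BATF libraries. Their share was 15.5% to 23.1% in MIT-Empty. CPM and TPM were scaled with these genes included. The libraries were not all separate. In both groups the counts of replicate 4 were at or below those of replicate 2, and the counts of replicate 5 at or below those of replicate 3, in nearly all genes: 0.238% to 0.570% of genes exceeded the larger library, against 2.78% or more for any other ordered pair. These 4 pairs appear to hold the same reads in part, so p-values from the deposited counts are too small. Each member is therefore given also with shared reads counted once, that is, with the counts of replicates 4 and 5 subtracted from replicates 2 and 3. All 8 markers of CD8+ T cells were tested and 0 passed by edgeR or by DESeq2, 0 also at an unadjusted p under 0.05, and *Cd3d* was the most abundant. Their summed level was 3127 to 5173 CPM in MIT-BATF and 3480 to 5738 CPM in MIT-Empty.

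*Ccl5* was higher and *Ccl9* was lower in MIT-BATF, and the other 6 members did not pass the test. By point estimate 6 members lay below 0 and 2 above it. The 2 called members stand beside 4.58% of all genes tested, the 1 called higher beside 2.16% and the 1 called lower beside 2.43%. *Ccl5* was also the 1 member whose groups did not overlap, against 6.45% of all genes in either direction (3.28% with MIT-BATF above and 3.17% with MIT-BATF below). The median log2 fold change over the members was -0.72, against 0.01 over all genes tested. With shared reads counted once, 0 members passed edgeR's test, beside 1.26% of all genes (0.575% higher and 0.683% lower), and DESeq2 also called 0. In these counts 5 members had an unadjusted p under 0.05 by edgeR (*Ccl1*, *Ccl5*, *Ccl9*, *Xcl1* and *Cxcl10*), beside 1184 of all 11129 genes tested. No member's groups were then apart, against 3.19% of all genes (1.63% above and 1.56% below). In these bulk libraries, fewer cells that express a gene and less RNA per cell cannot be told apart.

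**Figure D1:**
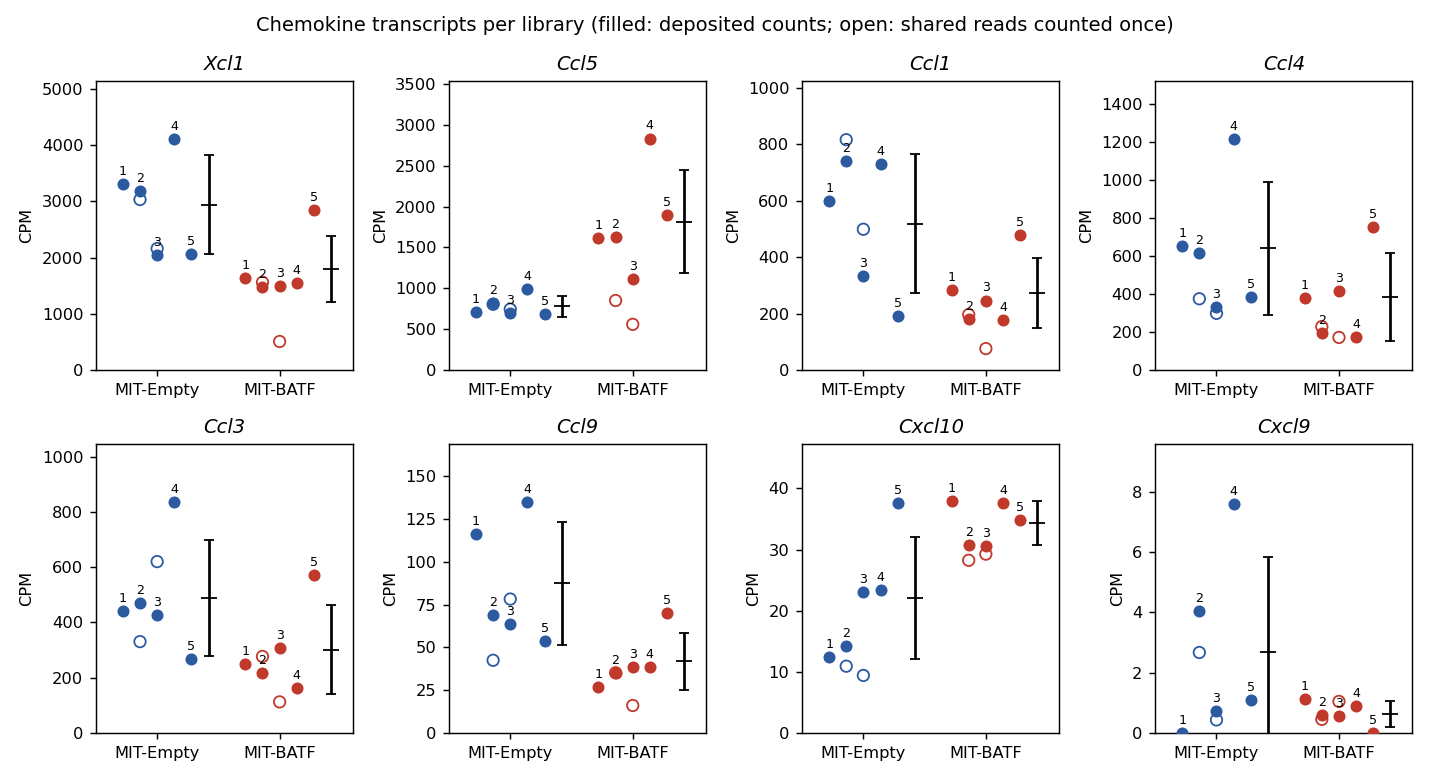
Level of each of the 8 chemokine genes in every library, in CPM on linear axes that start at 0, one panel per gene, with 5 MIT-Empty and 5 MIT-BATF libraries as numbered filled points, replicates 2 and 3 with shared reads counted once as open points, and the mean and SD (n = 5) of the filled points beside them; the lower SD bar of *Cxcl9* is clipped at 0. *Ccl5* is the gene whose groups are apart, with MIT-BATF from 1112 to 2831 CPM and MIT-Empty from 687 to 996 CPM.

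*Ccl5* encodes the CCR1 ligand also called RANTES, which memory and effector T cells make late after activation. Its level was 1616, 1632, 1112, 2831 and 1892 CPM in MIT-BATF replicates 1 to 5, and 710, 818, 693, 996 and 687 CPM in MIT-Empty replicates 1 to 5. The lowest MIT-BATF library exceeded the highest MIT-Empty library. The means were 1817 ± 633 and 781 ± 131 CPM (SD, n = 5 each), and the log2 fold change was 1.22 (SE 0.22, 95% interval 0.74 to 1.70, edgeR adjusted p = 0.00601), or 2.33-fold. Counting shared reads once lowered replicate 2 of MIT-BATF to 852 CPM and replicate 3 to 561 CPM, while the MIT-Empty libraries lay between 739 and 1076 CPM. The groups then overlapped, and the log2 fold change of 0.99 (SE 0.38, 95% interval 0.19 to 1.80) no longer passed (edgeR adjusted p = 0.301). Leaving out any single library of the deposited counts kept the log2 fold change between 1.01 and 1.35 and the adjusted p at or below 0.0209. Nested libraries remained in each of those fits.

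*Xcl1* encodes the XCR1 ligand by which CD8+ T cells and NK cells draw cross-presenting dendritic cells. It stood at 1646, 1487, 1496, 1553 and 2846 CPM in MIT-BATF and at 3305, 3192, 2045, 4105 and 2065 CPM in MIT-Empty. MIT-BATF replicate 5 was higher than 2 of the MIT-Empty libraries, and the other 4 MIT-BATF libraries were below all 5. The means were 1805 ± 585 and 2942 ± 883 CPM (SD, n = 5 each), and the log2 fold change of -0.70 (SE 0.24, 95% interval -1.23 to -0.18) did not pass over all genes (edgeR adjusted p = 0.129). Without MIT-BATF replicate 5 it was -0.93 (edgeR adjusted p = 0.0285). That was the 1 pass among 10 fits that left out a single library, with edgeR adjusted p up to 0.288. With shared reads counted once the log2 fold change was -0.85 (edgeR adjusted p = 0.455). *Xcl1* was among the genes that the study displayed for these same libraries, so its direction is not independent evidence.

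*Ccl3* and *Ccl4* encode the chemokines MIP-1α and MIP-1β, neighbors that activated T cells and macrophages express together. *Ccl3* was at 248, 217, 306, 164 and 573 CPM in MIT-BATF and at 441, 470, 426, 837 and 266 CPM in MIT-Empty. The groups overlapped through MIT-BATF replicates 3 and 5 and MIT-Empty replicate 5. The log2 fold change was -0.69 (SE 0.33, 95% interval -1.39 to 0.0048, edgeR adjusted p = 0.280). Without MIT-BATF replicate 5, the highest of its group, it was -1.06 with an adjusted p just under the threshold (0.049995), and with shared reads counted once it was -0.85 (adjusted p = 0.491). For *Ccl3*, 1 of 10 fits that left out a single library passed, with edgeR adjusted p up to 0.586. *Ccl4* was at 380, 196, 416, 175 and 753 CPM in MIT-BATF and at 652, 616, 332, 1213 and 385 CPM in MIT-Empty. Its lowest library was MIT-BATF replicate 4 and its highest MIT-Empty replicate 4, with overlap between the groups. The log2 fold change was -0.73 (SE 0.40, 95% interval -1.58 to 0.11, edgeR adjusted p = 0.355), and -0.78 (adjusted p = 0.638) with shared reads counted once. Without MIT-Empty replicate 4 the log2 fold change of *Ccl4* was -0.37 and that of *Ccl3* -0.41, and without MIT-BATF replicate 5 that of *Ccl4* was -1.13 (adjusted p = 0.108).

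*Ccl1* encodes the CCR8 ligand of activated T cells. Its level was 283, 181, 247, 179 and 479 CPM in MIT-BATF and 599, 742, 333, 730 and 194 CPM in MIT-Empty. MIT-Empty replicate 5 was lower than 3 of the MIT-BATF libraries, and 3 of the MIT-Empty libraries were above every MIT-BATF library. The log2 fold change was -0.92 (SE 0.35, 95% interval -1.67 to -0.18, edgeR adjusted p = 0.166), and -1.20 (adjusted p = 0.270) with shared reads counted once.

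*Ccl9* encodes a mouse CCR1 ligand best known from macrophages and related myeloid cells. It stood at 27.0, 35.0, 38.8, 38.6 and 70.3 CPM in MIT-BATF and at 116, 69.0, 63.5, 135 and 53.5 CPM in MIT-Empty. MIT-BATF replicate 5 lay above 3 of the MIT-Empty libraries, and the other 4 MIT-BATF libraries were below all 5. The means were 41.9 ± 16.6 and 87.4 ± 35.9 CPM (SD, n = 5 each), and the log2 fold change was -1.05 (SE 0.28, 95% interval -1.66 to -0.45). The edgeR adjusted p of 0.0483 was just under the threshold of 0.05. It missed the threshold with shared reads counted once (log2 fold change -1.18, adjusted p = 0.200) and when a single library was left out in 7 of the 10 cases: MIT-BATF replicate 1 (-0.92, 0.0757), replicate 2 (-1.0, 0.120), replicate 3 (-1.03, 0.102) or replicate 4 (-1.02, 0.113), or MIT-Empty replicate 1 (-0.92, 0.113), replicate 2 (-1.13, 0.0742) or replicate 4 (-0.84, 0.127).

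**Figure D2:**
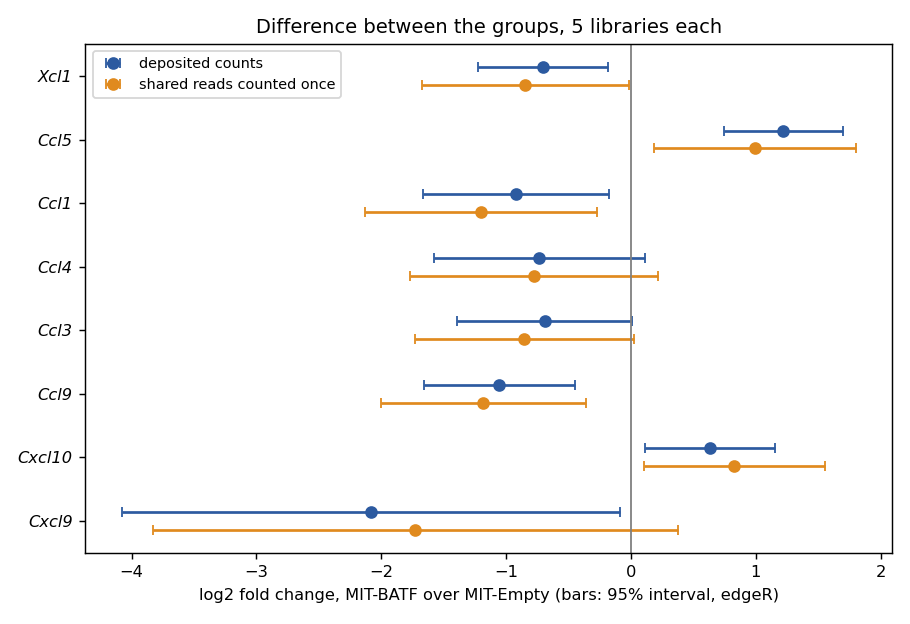
Log2 fold change of the 8 chemokine genes, MIT-BATF over MIT-Empty, with 95% intervals from edgeR (5 libraries per group), for the deposited counts and for shared reads counted once. *Ccl5* and *Cxcl10* lie above 0 in both, the other 6 below 0, and the intervals with shared reads counted once are wider for all 8 genes.

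Neither ligand of the CXCR3 receptor passed the test. *Cxcl10* was at 38.0, 30.8, 30.5, 37.6 and 34.8 CPM in MIT-BATF and at 12.4, 14.2, 23.0, 23.4 and 37.6 CPM in MIT-Empty. The MIT-BATF libraries lay close together, and 4 of the 5 MIT-Empty libraries were below all of them, with replicate 5 the exception. The means were 34.4 ± 3.57 and 22.1 ± 9.99 CPM (SD, n = 5 each), and the log2 fold change of 0.63 (SE 0.25, 95% interval 0.11 to 1.16) did not pass (edgeR adjusted p = 0.179). Without MIT-Empty replicate 5 it was 0.93 (adjusted p = 0.0212), and with shared reads counted once it was 0.83 (adjusted p = 0.362). Of the 10 fits that left out a single library, 1 passed, namely the one without that exception. The edgeR adjusted p reached 0.363 among the 10.

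*Cxcl9* was near the limit of detection, with 13, 15, 24, 9 and 0 counts in MIT-BATF and 0, 80, 18, 47 and 13 counts in MIT-Empty. These correspond to at most 1.14 CPM in MIT-BATF and at most 7.60 CPM in MIT-Empty, where replicates 2 and 4 held the highest values. A count of 0 allows up to 3 counts, which is 0.162 CPM in MIT-BATF replicate 5 and 0.367 CPM in MIT-Empty replicate 1. The log2 fold change was -2.08 (SE 0.93, 95% interval -4.08 to -0.09, edgeR adjusted p = 0.249). It was -1.73 (adjusted p = 0.609) with shared reads counted once and -0.04 without MIT-Empty replicates 2 and 4, one of the nested pairs. That last comparison was chosen after the data were seen.

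Levels between genes were compared per transcript length, in TPM, which divides counts by length and scales each library to the same sum. Over the 10 libraries the order by mean TPM was *Xcl1*, *Ccl5*, *Ccl1*, *Ccl4*, *Ccl3*, *Ccl9*, *Cxcl10* and *Cxcl9*. *Xcl1* averaged 2807 ± 635 TPM in MIT-BATF and 4778 ± 1172 TPM in MIT-Empty, and *Ccl5* averaged 3122 ± 804 TPM and 1432 ± 235 TPM (SD, n = 5 each). These 2 genes were among the most abundant of 21890 protein-coding genes, with *Xcl1* ranked between 24 and 55 in MIT-Empty libraries and between 50 and 89 in MIT-BATF libraries. *Ccl5* ranked between 97 and 134 in MIT-Empty and between 41 and 77 in MIT-BATF. *Xcl1* was above *Ccl5* in 5 of 5 MIT-Empty libraries and in 2 of 5 MIT-BATF libraries. *Ccl1* and *Ccl4*, next in order, exchanged places, with *Ccl1* higher in 6 of 10 libraries, and so did *Ccl9* and *Cxcl10*, with *Ccl9* higher in 1 of 5 MIT-BATF and 4 of 5 MIT-Empty libraries. The other neighbors kept their order in all 10 libraries. *Ccl9* averaged 14.4 ± 6.98 and 29.6 ± 11 TPM, *Cxcl10* 20.3 ± 2.68 and 13.0 ± 6.0 TPM, and *Cxcl9* 0.119 ± 0.068 and 0.463 ± 0.536 TPM in MIT-BATF and MIT-Empty (SD, n = 5 each). The *Ccl9* value sums transcripts of unlike length. *Ccl9-202*, of 398 bases against 3006 for *Ccl9-201*, held 7.82% of the counts and weighs more in TPM. The order of *Ccl9* and *Cxcl10* was not tested without it.

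Summed over the 8 genes, the level was 5768 to 8276 TPM in MIT-BATF and 5736 to 11815 TPM in MIT-Empty. *Ccl5* made up 43.3%, 48.1%, 35.0%, 61.1% and 32.7% of that sum in MIT-BATF replicates 1 to 5 and 14.4%, 16.2%, 20.9%, 15.2% and 21.6% in MIT-Empty replicates 1 to 5. *Xcl1* made up 30.1% to 44.5% in MIT-BATF and 55.1% to 59.8% in MIT-Empty. These shares use the deposited TPM, in which the nested libraries are not separated, and they are a description without a test.

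**Figure D3:**
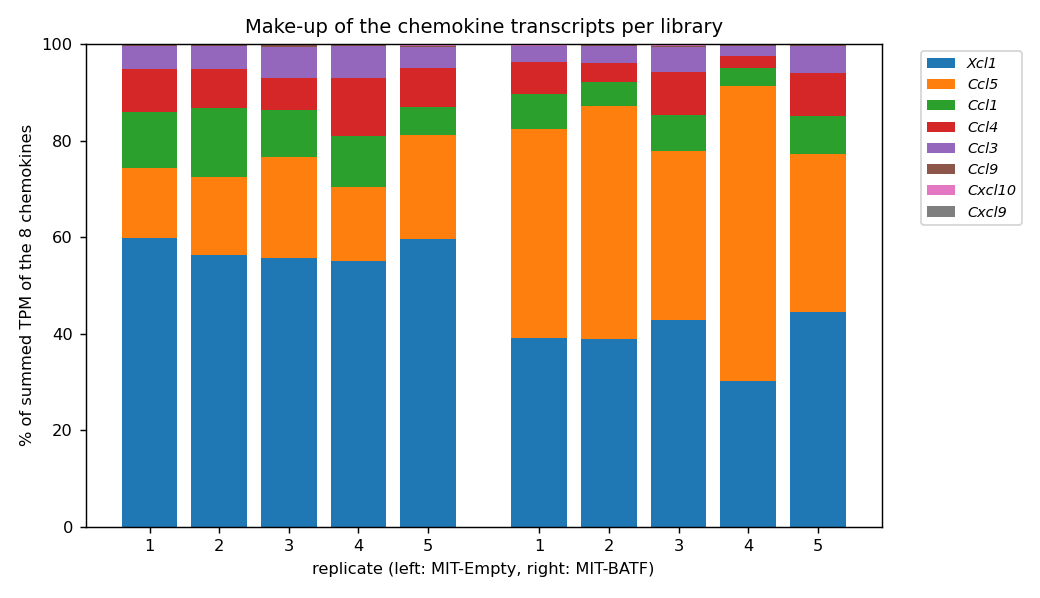
Share of each chemokine gene in the summed TPM of the 8 genes (percent, linear axis from 0 to 100), one stacked bar per library, MIT-Empty replicates 1 to 5 on the left and MIT-BATF replicates 1 to 5 on the right. *Ccl5* takes 32.7% to 61.1% of the bar in MIT-BATF and 14.4% to 21.6% in MIT-Empty, and *Xcl1* takes more than *Ccl5* in every MIT-Empty library.

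*Ccl5* was then set against each of the other 5 T cell chemokines within a library, a ratio in which library size cancels. The ratio of *Ccl5* to *Xcl1* counts was 0.982, 1.10, 0.744, 1.82 and 0.665 in MIT-BATF and 0.215, 0.256, 0.339, 0.243 and 0.333 in MIT-Empty. Every MIT-BATF value was above every MIT-Empty value. This held for all 5 ratios, with *Ccl5* to *Ccl1* at 3.95 to 15.8 against 1.10 to 3.55, *Ccl5* to *Ccl3* at 3.30 to 17.2 against 1.19 to 2.58, *Ccl5* to *Ccl4* at 2.51 to 16.1 against 0.821 to 2.09, and *Ccl5* to *Ccl9* at 26.9 to 73.4 against 6.11 to 12.8. With shared reads counted once the 5 ratios still did not overlap, the lowest MIT-BATF value of *Ccl5* to *Xcl1* being 0.545 and the highest MIT-Empty value 0.345. The closest pair was *Ccl5* to *Ccl4*, at 2.51 or more in MIT-BATF and 2.50 or less in MIT-Empty. For comparison, the ratio of *Ccl5* to any tested gene with a count in every library was apart in the same direction for 39.8% of genes in the deposited counts and for 6.12% with shared reads counted once. The ratios were chosen after the levels had been seen and carry no test. Among the genes with lower point estimates, the ratios of *Ccl3* to *Ccl4*, *Ccl3* to *Xcl1* and *Ccl4* to *Xcl1* overlapped between the groups.

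**Figure D4:**
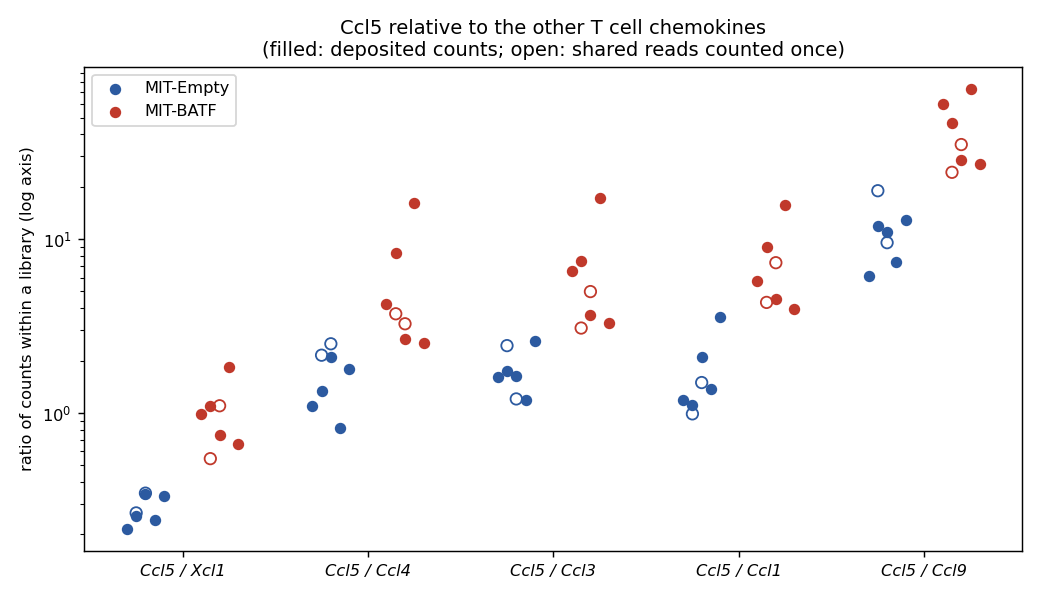
Ratio of *Ccl5* counts to those of each other T cell chemokine within a library, on a log axis, for 5 MIT-BATF and 5 MIT-Empty libraries, with filled points for deposited counts and open points for replicates 2 and 3 with shared reads counted once. In both sets of counts all MIT-BATF points lie above all MIT-Empty points for each of the 5 genes, by the least for *Ccl4* with shared reads counted once.

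The members also shared their high libraries. MIT-BATF replicate 5 was the highest of its group for 5 of the 6 T cell chemokines, all except *Ccl5*, and MIT-Empty replicate 4 was the highest of its group for 5 of the 6, all except *Ccl1*, and for *Cxcl9*. The same 2 libraries were the highest of their groups in markers of macrophages and monocytes. Of 13 such markers, 12 were tested and 4 were lower in MIT-BATF (*Lyz2*, *C1qc*, *Apoe* and *Ms4a7*), or 1 of 11 tested with shared reads counted once. In the latter counts 8 of the 11 had an unadjusted p under 0.05 by edgeR, and DESeq2 called 5 lower. Leaving aside *Ly6c2*, which CD8+ T cells also express and which was left out after values were seen, the other 12 markers summed to 25.0, 41.4, 46.4, 40.7 and 82.6 CPM in MIT-BATF and to 121, 154, 117, 290 and 43.6 CPM in MIT-Empty. All 13 together, led by *Ly6c2*, summed to 1605 to 3240 CPM and 1275 to 2741 CPM, and none of the 13 was at 0 in all libraries. *Cxcl10* was highest in MIT-BATF replicate 1 (38.0 CPM) and MIT-Empty replicate 5 (37.6 CPM), the libraries where the sum of the 12 markers was lowest in each group. Macrophages express *Ccl3*, *Ccl4*, *Ccl9*, *Cxcl9* and *Cxcl10*, and the part of these cells in the values was not tested.

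Melanoma markers moved in the same direction. Of 8 markers, 6 were tested and all 6 were lower in MIT-BATF, or 2 of 5 with shared reads counted once. In the latter counts all 5 had an unadjusted p under 0.05 by edgeR, with a median log2 fold change of -3.89. DESeq2 called 0 there, counted over genes to which it gave an adjusted p. The 8 markers summed to 14.4 to 29.5 CPM in MIT-BATF and to 116, 577, 52.7, 1738 and 39.7 CPM in MIT-Empty, and *Tyrp1* was the most abundant. Replicates 2 and 4, the highest, are a nested pair, and with the counts of replicate 4 subtracted the sum of replicate 2 was 50.9 CPM. Without both libraries, a comparison chosen after the data were seen, *Ccl5* had a log2 fold change of 1.39 (edgeR adjusted p = 0.0261) and *Ccl9* of -0.88 (adjusted p = 0.203). The estimates of the other T cell chemokines moved toward 0 by more than 1.5 times, to -0.45 for *Ccl1*, -0.32 for *Ccl3*, -0.24 for *Ccl4* and -0.45 for *Xcl1*, with adjusted p from 0.506 to 0.858. The 2 libraries left out also held the highest MIT-Empty values of the T cell chemokines, replicate 2 for *Ccl1* and replicate 4 for the other 5. A link between the members and the melanoma markers was not tested.

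**Figure D5:**
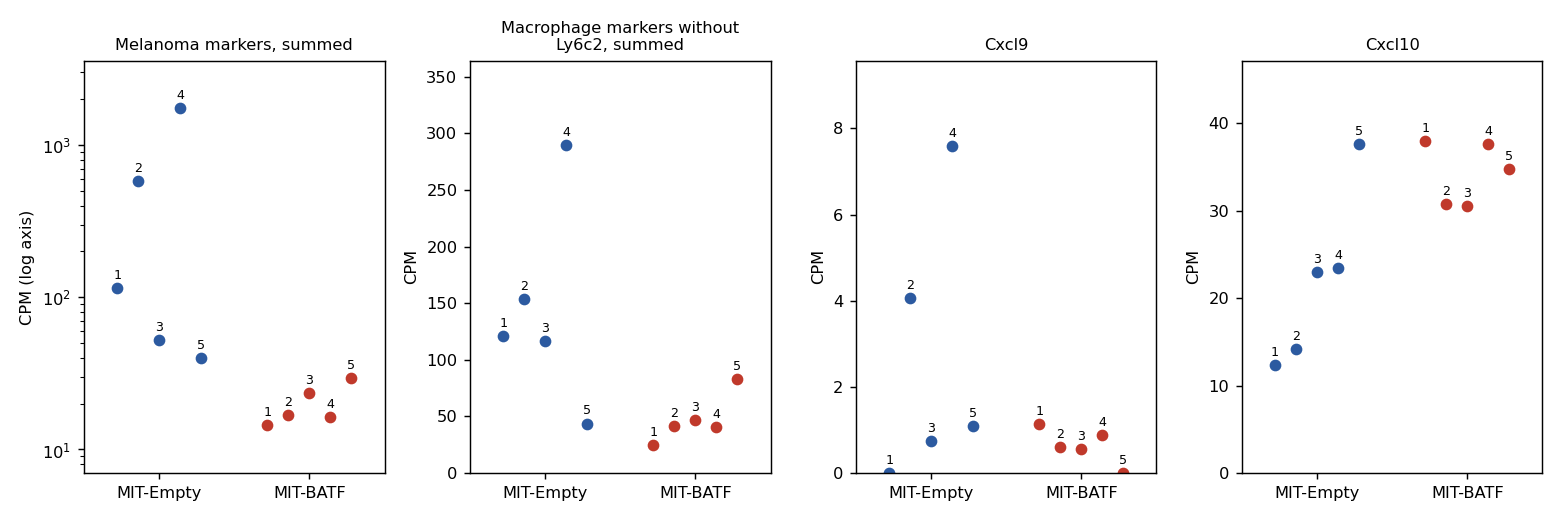
Summed melanoma markers (log axis), summed macrophage and monocyte markers without *Ly6c2*, and *Cxcl9* and *Cxcl10* (linear axes from 0), in CPM, one point per library with its replicate number, for 5 MIT-Empty and 5 MIT-BATF libraries. The macrophage sum runs from 25.0 to 82.6 CPM in MIT-BATF and from 43.6 to 290 CPM in MIT-Empty, and MIT-Empty replicate 4 is the highest of its group in both marker sums and in *Cxcl9*, but not in *Cxcl10*.

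The other cell types that a tumor sort could hold were measured alike. Of 4 dendritic cell markers tested, *Xcr1* and *Itgax* were higher in the deposited counts, and *Xcr1* alone with shared reads counted once. The 5 NK cell markers tested, led by *Klrk1*, had 1 higher, *Gzma*, which CD8+ T cells also express. Of these, 0 of 3 tested with shared reads counted once passed by edgeR, where 1 had an unadjusted p under 0.05, and DESeq2 called 1. The 2 B cell markers tested had *Cd79b* higher and *Ighm*, the most abundant of the list, lower. With shared reads counted once *Ighm* alone passed by edgeR, while DESeq2 called 1 higher and 1 lower. Of 2 fibroblast and endothelial markers tested, *Dcn* was lower in both sets of counts and *Pecam1*, the most abundant, did not pass. Of the 2 CD4+ T cell markers and the 1 neutrophil marker tested, 0 passed by edgeR or DESeq2, 0 also at an unadjusted p under 0.05. Summed CD4+ T cell markers were at most 7.33 CPM, led by *Cd40lg*, and summed neutrophil markers at most 7.83 CPM, led by *Cxcr2*, in any library.

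Of the receptors of these ligands, 5 of 9 had counts enough for a test, 3 were higher in MIT-BATF and 0 lower, in deposited counts and again with shared reads counted once. Over all genes tested, 2.16% were called higher in the deposited counts and 0.575% with shared reads counted once. The median log2 fold change of the 5 tested was 1.08, against 0.01 over all genes tested. *Ccr1*, the receptor of CCL3, CCL5 and CCL9, was at 4.92, 3.12, 5.26, 2.25 and 1.89 CPM in MIT-BATF and at 0.122, 0.457, 0.287, 0 and 0 CPM in MIT-Empty. Its groups did not overlap, and the log2 fold change was 3.98 (edgeR adjusted p = 0.00243, and 0.0195 with shared reads counted once). The 0 of MIT-Empty replicates 4 and 5 allows 0.485 and 0.249 CPM.

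*Xcr1*, the receptor of XCL1, was at 7.99, 9.85, 11.3, 14.5 and 13.2 CPM in MIT-BATF and at 3.80, 3.30, 2.01, 2.75 and 1.91 CPM in MIT-Empty. No MIT-Empty library reached the lowest MIT-BATF library. The log2 fold change of 2.06 (edgeR adjusted p = 0.00067) passed also with shared reads counted once (adjusted p = 0.00884). *Xcr1* is a marker of dendritic cells, whose list summed to 20.2 to 28.3 CPM in MIT-BATF and 12.9 to 16.9 CPM in MIT-Empty with *Xcr1* included. *Zbtb46*, the most abundant gene of the list over both groups, averaged 5.96 ± 2.30 in MIT-BATF and 9.53 ± 2.33 in MIT-Empty (CPM, SD, n = 5 each) and did not pass (log2 fold change -0.70, edgeR adjusted p = 0.239). *Batf3* was at most 1.94 CPM. *Clec9a*, *Flt3* and *Siglech* were each at most 0.58 CPM in any library, and *Cd209a* had no count in any. The part of dendritic cells in the *Xcr1* values was not tested. *Cxcr3*, the receptor of CXCL9 and CXCL10 on T cells, rose from 19.0 ± 3.71 CPM to 40.2 ± 12.1 CPM (SD, n = 5 each), with a log2 fold change of 1.08 (edgeR adjusted p = 0.0108, and 0.0399 with shared reads counted once). The study singled out *Cxcr3* in these same libraries, so its values are no independent support. *Ccr8*, the receptor of CCL1, did not pass (log2 fold change 0.75, edgeR adjusted p = 0.0868). *Ccr3*, *Ackr1*, *Ackr2* and *Ackr4* were too low to be tested, each at most 1.09 CPM.

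Of 29 other chemokine ligands searched by name, *Xcl2* was not among the genes quantified, and 10 were tested. Of those tested, 0 were higher and 1 was lower in MIT-BATF, with a median log2 fold change of -1.10, against 0.01 over all genes. The lower gene was *Ccl8*, a monocyte-attracting ligand made by macrophages, at 20.3, 11.2, 18.2, 11.2 and 36.3 CPM in MIT-BATF and 138, 154, 29.5, 252 and 15.3 CPM in MIT-Empty. MIT-Empty replicates 3 and 5 overlapped with the MIT-BATF libraries. Its log2 fold change was -2.59 (edgeR adjusted p = 0.0232, and 0.0477 with shared reads counted once).

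Granule proteins and cytokines that T cells release with chemokines did not move one way. Of 13 such genes, all 13 were tested, 2 were higher and 1 lower, with a median log2 fold change of 0.07, against 0.01 over all genes. *Gzmb*, a granule protease, rose from 370 ± 116 to 817 ± 162 CPM (log2 fold change 1.14, edgeR adjusted p = 0.00724), and *Gzma* rose from 118 ± 53.1 to 258 ± 37.5 CPM (1.13, adjusted p = 0.0257). *Csf2*, which encodes the myeloid growth factor GM-CSF, fell from 10.1 ± 2.81 to 3.43 ± 0.866 CPM (-1.56, adjusted p = 0.00404; SD, n = 5 each throughout). In the deposited counts the groups did not overlap for these 3 genes. With shared reads counted once those of *Csf2* overlapped, with MIT-BATF replicate 2 at 5.94 CPM and MIT-Empty replicate 5 at 5.71 CPM, and those of both granzymes did not. With shared reads counted once *Gzmb* (adjusted p = 0.0435) and *Csf2* (0.0182) still passed and *Gzma* (0.108) did not. The study displayed both granzymes for these libraries. *Ifng*, the inducer of *Cxcl9* and *Cxcl10*, did not pass, at a log2 fold change of -0.22 (adjusted p = 0.816).

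Genes that interferon gamma induces in myeloid cells had 11 of 14 tested, with 1 higher and 3 lower in MIT-BATF and a median log2 fold change of 0.11 over those tested, against 0.01 over all genes. *Gbp2*, an interferon-induced GTPase, was higher (1.14, edgeR adjusted p = 0.00814, and 0.0523 with shared reads counted once). The 3 lower genes, *Cd74* (-1.93), *H2-Aa* (-1.96) and *H2-Eb1* (-2.19), serve class II antigen presentation, and 3 genes of the list were lower also with shared reads counted once. Of 25 factors known to act on T cell chemokine genes, all were tested, with 2 higher (*Runx1*, 1.01, and *Egr1*, 1.02) and 1 lower (*Rel*, -0.55), and the median log2 fold change was 0.18, against 0.01 over all genes. Once shared reads were counted once, 0 of the 25 passed by edgeR, where 7 had an unadjusted p under 0.05, and DESeq2 called 2 higher.

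The genes whose pattern over the 10 libraries was most like a member's were found by the root mean square difference of centered log2 CPM among 6212 genes. *Ccl5* was nearest to *Kdm6b* (0.22), *Gpr65* (0.27) and *S100a6* (0.28), and *Xcl1* to *Hist1h2ag* (0.19), *Depdc1a* (0.20) and *Ss18l2* (0.21). The nearest genes of 4 of the T cell chemokines included another member. *Ccl3* was near *Abhd18* (0.31), *Ccl4* (0.31) and *Ncapg* (0.33), and *Ccl4* was near *Ccl3* (0.31), *Gbe1* (0.32) and *Tyrobp* (0.33). *Ccl9* was near *Xcl1* (0.30), *Ska2* (0.31) and *Cenpk* (0.31), and *Ccl1* was near *Cd72* (0.35), *Ccl3* (0.36) and *Xcl1* (0.36). Neither *Ccl5* nor *Xcl1* had another member among its 3 nearest. *Cxcl10* was near *Glrx* (0.23), *Lpxn* (0.25) and *Tmem222* (0.26), and the genes nearest to *Cxcl9* were farther off, namely *Cfl2* (0.67), *Ero1l* (0.71) and *Scd2* (0.72). The libraries are partly nested and share group differences, so this is a description and carries no test.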

How the data were processed

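Bulk RNA was measured in 10 libraries, 5 per group. The authors ran the nf-core/rnaseq pipeline on mm10 and deposited Salmon output per transcript, with an estimated count and a TPM value each (Salmon version not given in the sources used here). These deposited estimated counts were summed per gene with the GENCODE annotation of GRCm38 and rounded, and the deposited TPM values were summed per gene to compare levels between genes. Of 112092 transcripts, 305 had no match in the annotation. The main test was edgeR 4.0.16 (R 4.3.3) with TMM scaling, filterByExpr, glmQLFit and a two-sided glmQLFTest with condition as the one term, and p-values were adjusted by Benjamini-Hochberg over all 11781 genes tested (threshold 0.05). CPM used TMM-scaled totals. DESeq2 1.42.0, other scalings and filters, single libraries left out and shared reads counted once (11129 genes tested) were alternatives. For the last, the counts of a contained library were subtracted from the larger one, and at most 0.215% of the contained counts were lost where this went below 0. The main test was run on simulated data for 5 separate libraries per group and 11781 genes, 200 of them changed: it recovered 43.2% of 2-fold and 85.7% of 4-fold changes, with 4 false calls among 138. The simulated libraries were not nested, so these values do not measure false calls in the real, partly nested libraries.

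The members, gene lists and comparisons were chosen with earlier results of these data known. The genes named are the 8 members, their receptors, up to 4 genes that passed from each list, the most abundant gene of cell type lists and the 3 genes nearest to each member. *Ifng* and the dendritic cell markers other than *Xcr1*, *Itgax* and *Zbtb46* were named after their values were seen, and 1 receptor of the list is not reported here. Medians cover the genes of a list that were tested and stand beside the same value over all genes tested, and no set test was run. Each library came from a separate mouse per the labels, but the counts of replicates 4 and 5 appear to be contained in those of replicates 2 and 3. Depth was 6534648 to 34102346 counts per library, and floors for a count of 0 cover counting error only. Promoter windows came from RefSeq (GRCm38.p6).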

Additional observations from a re-analysis of the deposited data

Results flagged for a closer look

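Among the 16 sets of 5 libraries that the 8 genes and 2 groups make, 2 had a highest or lowest library far from the rest by Dixon's criterion, which chance alone meets in about 1 in 20 sets. Both were MIT-BATF replicate 5. *Xcl1* was at 2846 CPM there, and the nearest MIT-BATF library at 1646 CPM, so this gap took a 0.883 share of the range of the group. *Ccl9* was at 70.3 CPM there and at 38.8 CPM in the nearest library, a 0.729 share of the range. The counts of this library appear to be contained in those of replicate 3.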

How the results depend on the processing

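No member changed direction under any of the 22 alternatives (21 for *Cxcl9*, which fell under the mean count filter of 50). *Ccl5* passed the threshold in 17 of 22 and *Ccl9* in 7 of 22. Every one of these passes came from a fit that kept nested libraries, so they are not separate support. In the 5 alternatives without nested counts *Ccl5* did not pass, with adjusted p from 0.0581 to 0.301 (edgeR or DESeq2). With shared reads counted once, *Ccl5* was at 0.99 (edgeR adjusted p = 0.301) and *Ccl9* at -1.18 (0.200). DESeq2 on the same counts gave 1.00 (adjusted p = 0.114) and -1.18 (0.0790). Without the contained libraries edgeR gave 1.00 (adjusted p = 0.0581) and -1.27 (0.0581), with fewer samples, and without the containing libraries 1.41 (0.0825) and -1.16 (0.356). In each of these, 0 members were called higher and 0 lower. Of all genes tested, 140 of 11129 were called by edgeR with shared reads counted once, and 389 of 14500 by DESeq2. Without the contained libraries edgeR called 96 of 12311, and without the containing libraries 15 of 11041. In those last fits the unadjusted edgeR p was 0.000615 and 0.000315 for *Ccl5*, and 0.000654 and 0.0109 for *Ccl9*. *Ccl9* alone missed the threshold, leaving 0 members lower, with RLE size factors (-1.06, adjusted p = 0.0506) and, chosen after seeing the data, without the MIT-Empty pair highest in melanoma markers (-0.88, 0.203). Of all genes tested, 277 of 11781 were called lower with RLE size factors and 132 of 12313 without that pair.

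Leaving out 1 library at a time, *Ccl9* ranged from -1.32 to -0.84, *Ccl5* from 1.01 to 1.35, *Ccl3* from -1.06 to -0.41, *Xcl1* from -0.93 to -0.55, *Ccl4* from -1.13 to -0.37, *Ccl1* from -1.22 to -0.76, *Cxcl9* from -2.39 to -1.29 and *Cxcl10* from 0.49 to 0.93. Members called higher ranged from 1 to 2 and those called lower from 0 to 3, with 3 without MIT-BATF replicate 5. That fit called 290 of all 11735 genes tested lower.

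Replicate numbers are shared by the groups, and whether they pair the libraries is not settled by these data. Correlations of same-numbered deviations ran from -0.0550 to 0.255. MIT-BATF replicates 1 and 3 correlated most with their own number, and replicates 2, 4 and 5 with another. These deviations come from the deposited counts, in which libraries are nested. A replicate block gave *Ccl9* -1.04 (edgeR adjusted p = 0.105) and 0 members lower, and a block with shared reads counted once gave *Ccl5* 0.77 (0.296), *Ccl9* -1.23 (0.149), 0 higher and 0 lower. Of all genes tested, the block called 239 of 11781 lower. With shared reads counted once it called 80 of 11129 higher and 94 lower. The causes of these shifts were not tested. *Cxcl9* had the fewest counts of the members, 0 to 80 per library.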
